A study of Bos taurus with 42 samples.

Results

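Cloned bovine embryos at the 2-cell stage were compared with the unfertilised oocytes they are built from, across all small non-coding RNAs of the deposited table. The comparison takes every row of the table and the columns of 4 nuclear transfer (NT) 2-cell libraries and 3 oocyte libraries (replicates 1, 3 and 4), which is 7 of the 42 libraries in the series. The oocytes were in vitro matured bovine oocytes at metaphase II, taken from maturation medium with serum, FSH and LH. The NT embryos were made from such oocytes, which were stripped of cumulus cells and exposed to demecolcine, lost their own chromosomes by enucleation, and received by fusion a serum-starved skin fibroblast of a cross-bred bull. The couplets were then activated and cultured together with cumulus cells until day 2. All NT embryos descended from 1 donor fibroblast line, so the donor genotype was not replicated. Each embryo library came from a pool of 20 embryos, and the number of oocytes in a pool is not given in the sources used here. Where in vitro fertilised (IVF) 2-cell embryos are named, they are 4 libraries from day 2 of the same series, and they were measured against the same 3 oocyte libraries. RNA of less than 200 nucleotides was sequenced without selection for a narrower size. The labels do not say that the pools came from separate collections, so the spread between these pools may be technical. The p-values of shares measure that spread. The p-values of single entries rest on its trend over all tested entries, not on the entry's own spread.

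The oocyte and the 2-cell embryo live largely on RNA that was made while the oocyte grew. Before the embryonic genome is activated at a later cleavage stage, the pool of small RNAs can change through cutting, trimming, tailing and decay, and only to a small extent through new transcription. PIWI-interacting RNAs (piRNAs) silence transposons in the germ line and dominate the small RNA of the bovine oocyte. MicroRNAs (miRNAs) guide repression of messenger RNAs. tiRNAs arise when an endonuclease cuts a mature tRNA in its anticodon loop, and the 5′ piece, the 5′ tiRNA, is a form often seen in stressed cells and in sperm.

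The table has 12345 rows, called entries here. An entry is an annotation to which 1 or more sequences were assigned, and it may carry several annotations. By first annotation there were 9474 piRNA entries in 616 clusters, 907 tRNA-derived entries, 619 miRNA entries, of which 379 were free of mismatches, and 505 entries for miRNAs of other species. The rest were fragments of predicted protein-coding transcripts, snRNA, snoRNA, rRNA and other RNA. The deposited values are variance-stabilised log2 values, from which size-factor-normalised reads and whole reads were recovered. Levels below are normalised reads, not divided by length, listed for oocyte replicates 1, 3 and 4 and then for NT replicates 1 to 4.

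One library stood apart. NT 2-cell replicate 4 held 1639799 listed reads, and the other 6 libraries held between 390689 and 579327. All 12345 entries were found in it, against 5513 to 6606 in the other 6, so the table lists no entry that was absent from this library. Of all entries, 2174 were found among the 7 libraries only in NT replicate 4. Results are therefore given with this library and without it.

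The 4 shares tested, those of piRNA, tRNA-derived and miRNA entries and of 5′ tiRNAs, showed no difference beyond the spread of the pools. piRNA entries took 89.9% ± 1.73 (SD, n = 3) of listed reads in oocytes and 88.8% ± 4.44 (SD, n = 4) in NT embryos, with an exact permutation p of 0.914. tRNA-derived entries took 4.34% ± 1.72 and 5.67% ± 3.12, with an exact p of 0.686. miRNAs took 2.49% ± 0.664 and 2.12% ± 0.733, with an exact p of 0.457. The 5′ tiRNAs made up 26.4% ± 20.8 of tRNA-derived reads in oocytes and 29.0% ± 17.5 in NT embryos, with an exact p of 0.8. These 4 two-sided tests over 35 splits could reach 0.0286 at the lowest, and each had an adjusted p of 0.914. Without NT replicate 4 the NT shares were 88.3% ± 5.27 for piRNA, 6.15% ± 3.64 for tRNA-derived entries, 2.17% ± 0.888 for miRNAs and 29.5% ± 21.4 for 5′ tiRNAs among tRNA-derived reads (SD, n = 3). The wide spread of the 5′ tiRNAs came from oocyte replicate 4, at 49.6%, and NT replicate 3, at 53.1%, while the other 5 libraries lay between 9.54% and 27.4%.

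Single entries did differ. Of 7803 entries tested with limma, 31 passed an adjusted p of 0.05 (0.397%), 20 of them higher in NT embryos (0.256%) and 11 lower (0.141%), and 445 had an unadjusted p under 0.05 (5.7%). Without NT replicate 4, 6111 entries were tested and 5 passed (0.0818%), 3 higher (0.0491%) and 2 lower (0.0327%), with 357 at an unadjusted p under 0.05 (5.84%). All 31 kept their direction in that smaller fit, and 26 of them missed the threshold there, with adjusted p between 0.124 and 0.777. The 5 that passed both ways were 5′ tiRNAs of 2 valine tRNAs, 1 glycine tRNA and 1 tRNA listed by Ensembl identifier, and a mitochondrial rRNA entry, so every other call below was lost without that library. The median change over all entries was -0.0033 on the log2 scale with 7 libraries and -0.18 without replicate 4. Other scalings changed the balance of the calls, to 33 higher and 4 lower on CPM of the listed reads, 21 and 2 after quantile normalisation, and 13 and 4 after median centring. The model took each entry's spread wholly from the trend of spread with level, so its SE and p-value do not measure that entry's own spread between libraries. When the model was fitted without that trend no entry passed (615 had an unadjusted p under 0.05). For that reason the value in each library is printed beside the calls: of the 31 entries, 14 higher and 6 lower ones had groups that did not overlap, and 11 overlapped. Over all tested entries, 2.35% lay above without overlap and 2.91% lay below.

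**Figure D1:**
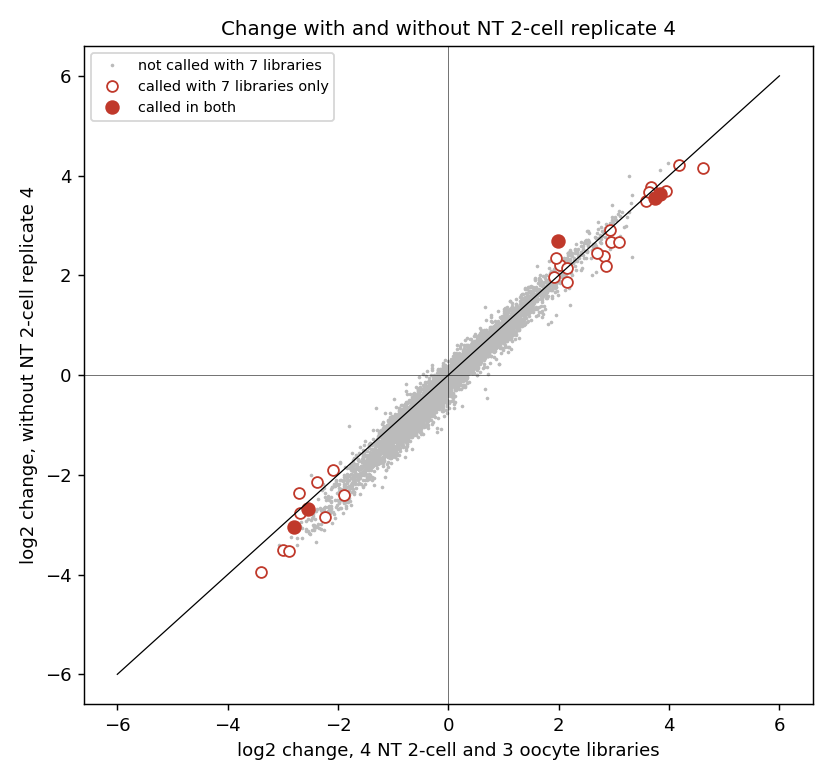
Each point is 1 entry, with its log2 change from oocyte to NT 2-cell embryo from all 7 libraries on the x axis and without NT replicate 4 on the y axis. The 31 entries called with 7 libraries are red, the 5 called both ways are filled, and all 31 lie on the same side of 0 on both axes.

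The calls with the smallest adjusted p were 5′ tiRNAs from valine tRNAs, which rose in the clones; these are the tRNAs that bring valine to the ribosome. The table numbers tRNA genes and gives their anticodons, with no coordinates. The 5′ tiRNA of tRNA ValAAC/ValCAC number 8133 stood at 151, 157 and 443 normalised reads in the oocytes and at 3634, 608, 8008 and 4533 in the NT embryos. The groups did not overlap, and the means differed 16.8-fold. The log2 change was 3.74 ± 0.48 (SE), with an adjusted p of 6.8e-11, and without NT replicate 4 it was 3.54 with an adjusted p of 0.0015. Normalised reads are relative to the other entries of a library, so the absolute amount in a pool was not measured, here or below. Since whole oocytes and embryos were pooled, a change in the number of cells and a change in RNA per cell cannot be told apart either.

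The 5′ tiRNAs of 3 tRNAs with the valine anticodon TAC rose too. The 5′ tiRNA of tRNA ValTAC number 3277 had 20.1, 9.8 and 38.7 normalised reads in oocytes and 520, 107, 516 and 529 in NT embryos, an 18.3-fold difference of means. Its log2 change was 3.83 ± 0.55 (SE), with an adjusted p of 1e-08, and without replicate 4 it was 3.64 with an adjusted p of 0.0037. NT replicate 2 was the lowest of the 4 clones and still lay above every oocyte library. The 5′ tiRNA of tRNA ValTAC number 4963 went from 20.1, 19.6 and 45.7 to 481, 66.8, 220 and 434 (log2 change 2.95 ± 0.56, adjusted p 1.9e-04), again with no overlap. Without NT replicate 4 its change was 2.66 and the adjusted p 0.165. The 5′ tiRNA of tRNA ValTAC number 1469 was at 0 in all 3 oocyte libraries and at 33.2, 20.0, 94.6 and 162 in the clones. With 3 reads granted to each oocyte library, its mean was at least 5.75-fold higher in NT embryos, and its adjusted p was 0.0049 with 7 libraries, 0.12 without NT replicate 3 and 0.261 without NT replicate 4. On CPM of the listed reads the groups did not overlap for number 3277 and did overlap for numbers 8133 and 4963.

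**Figure D2:**
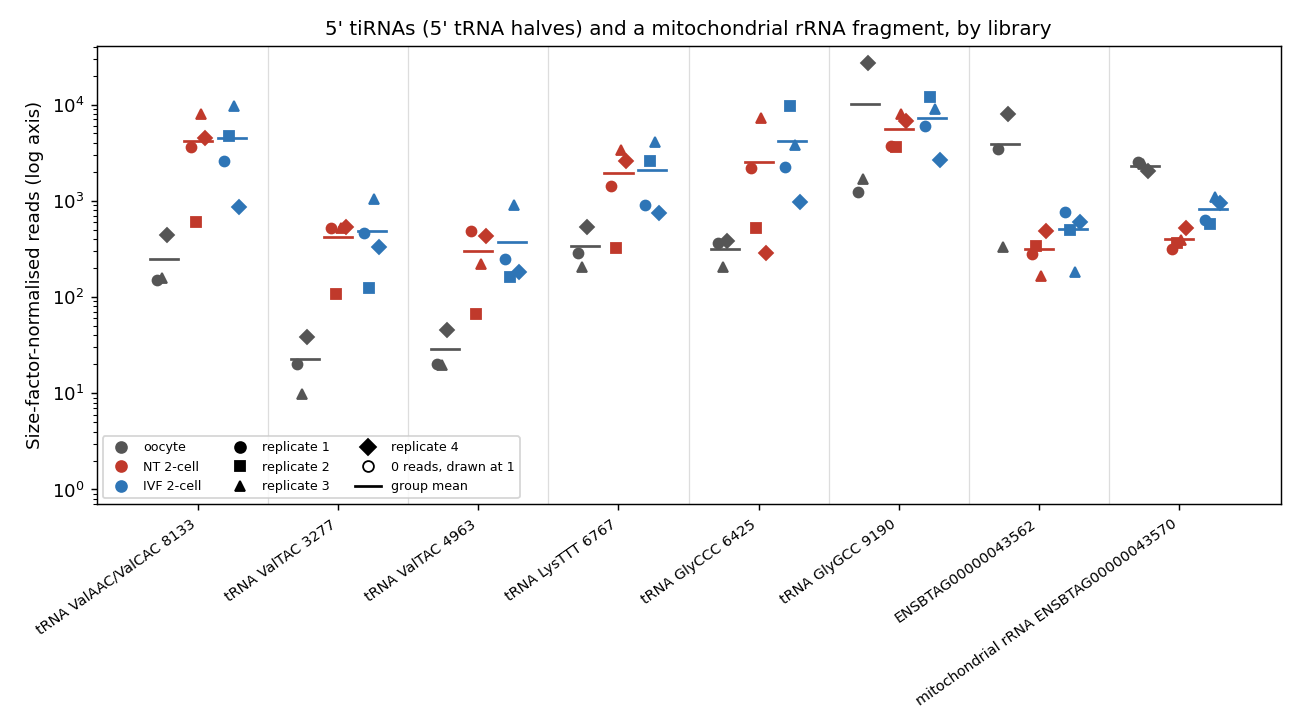
Normalised reads on a log axis for 7 tiRNAs from the 5′ side and 1 mitochondrial rRNA entry, with 1 point per library and a bar at each group mean. The valine 5′ tiRNAs are higher in all 4 NT libraries than in all 3 oocyte libraries, the 5′ tiRNA of tRNA GlyGCC number 9190 overlaps, and the mitochondrial rRNA entry is lower in all 4 NT libraries.

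Some 5′ tiRNAs of lysine, glycine and glutamate tRNAs rose as well. A lysine 5′ tiRNA, tRNA LysTTT number 6767, went from 287, 206 and 527 to 1433, 321, 3372 and 2567 (log2 change 2.15 ± 0.48, adjusted p 0.0049). NT replicate 2 fell inside the oocyte range here. The call was lost without oocyte replicate 1 (0.12), oocyte replicate 3 (0.23), NT replicate 3 (0.25) or NT replicate 4 (0.47), where the values are adjusted p. A fragment from inside the same tRNA rose as well, from 20.1, 0 and 21.1 to 44.3, 60.1, 68.8 and 200, with an adjusted p of 0.042 and no overlap. The glycine 5′ tiRNA of tRNA GlyCCC number 6425 stood at 367, 206 and 383 in oocytes and at 2174, 521, 7176 and 286 in clones (log2 change 1.99 ± 0.48, adjusted p 0.016). It passed without NT replicate 4 too, at a log2 change of 2.69 and an adjusted p of 0.045, and it missed the threshold without NT replicate 3, the highest library, at 1.15 and 0.54, as well as without NT replicate 1 or any 1 oocyte library. The 5′ tiRNAs of tRNA GluTTC number 5944 (126, 157 and 492 against 1084, 281, 2021 and 718) and tRNA LysCTT number 5639 (45.3, 58.8 and 169 against 492, 114, 1256 and 134) passed with adjusted p of 0.028 and 0.042, with overlapping groups. These last entries, outside the naming rule, were named because they completed the set of called 5′ tiRNAs.

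The most abundant 5′ tiRNAs, from glycine tRNAs, did not pass. The 5′ tiRNA of tRNA GlyGCC number 9190 had 1228, 1671 and 27308 normalised reads in oocytes and 3712, 3648, 8015 and 6677 in clones (log2 change 0.44, adjusted p 0.99). That of tRNA GlyCCC/GlyGCC number 848 had 2210, 1838 and 10755 against 5178, 1770, 16828 and 2245 (log2 change 0.29, adjusted p 1.00). Oocyte replicate 4 exceeded the other oocyte libraries several-fold in both. The main methionine 5′ tiRNA, tRNA MetCAT number 8729, ran from 221, 348 and 2774 to 476, 274, 2128 and 308 (log2 change -0.15).

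Counted over all 5′ tiRNAs with a numbered tRNA gene, 34 of 48 entries were tested, and 8 were called higher and 0 lower. Over all 7803 tested entries, 20 were called higher (0.256%) and 11 lower (0.141%). The median log2 change of the 34 was 1.91, beside -0.0033 over all entries, and 28 were positive. An entry found in NT embryos alone can pass the filter on low values, so the same was counted among the 15 numbered 5′ tiRNAs found in all 7 libraries, where the median was 1.86 and 12 were positive. Without NT replicate 4, 26 were tested, 3 passed, all higher, and the median was 1.87. By amino acid, 4 of 6 tested valine 5′ tiRNAs passed (median 3.34), as did 2 of 5 lysine 5′ tiRNAs (2.15), 1 of 4 glutamate 5′ tiRNAs (2.20) and 1 of 5 glycine 5′ tiRNAs (0.44). None of the 3 alanine 5′ tiRNAs passed in limma (2 had an unadjusted p under 0.05), at a median of 2.19, and the 2 methionine and 2 aspartate 5′ tiRNAs had medians of -0.21 and -1.06. The remaining 14 numbered 5′ tiRNAs were too low to test. Some tested entries passed the filter through NT libraries alone, so the medians were also taken among entries found in all 7 libraries. They were 3.74 for 3 valine, 1.95 for 3 lysine, 1.79 for 2 glutamate and 0.44 for 3 glycine 5′ tiRNAs. For methionine the median was -0.21 (2 entries), the 1 aspartate entry had -0.41, and 0 alanine entries were left. The proline 5′ tiRNA of tRNA ProCGG/ProAGG/ProTGG number 96 narrowly missed, at 60.4, 78.4 and 105 against 293, 180, 375 and 412 (log2 change 1.86, adjusted p 0.063), with no overlap.

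**Figure D3:**
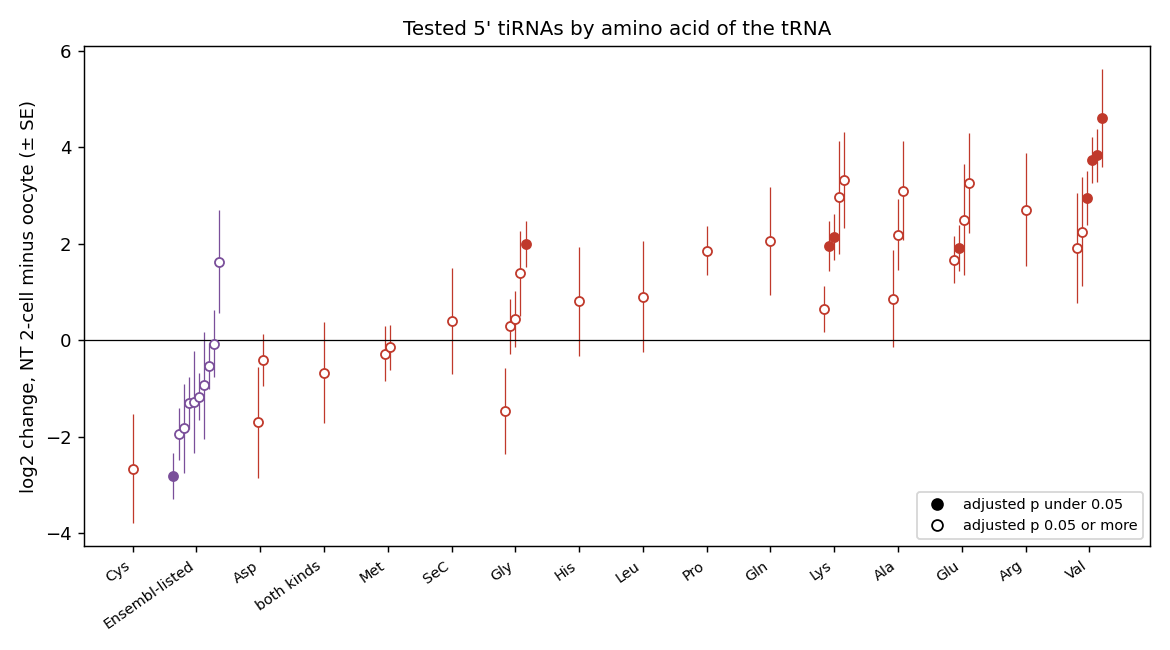
Log2 change with its SE for each tested 5′ tiRNA, grouped by the amino acid of its tRNA and ordered by group median; filled points passed an adjusted p of 0.05. SeC is selenocysteine, and "both kinds" is 1 tRNA GlnTTG entry listed under both naming systems. Valine 5′ tiRNAs have the highest median, 3.34, and the 5′ tiRNAs listed by Ensembl identifier lie mostly below 0.

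The make-up of the 5′ tiRNAs by amino acid differed in the same direction. Valine supplied 3.59%, 3.40% and 1.24% of the reads of numbered 5′ tiRNAs in oocytes and 22.3%, 9.35%, 16.6% and 27.2% in clones. Glycine supplied 73.4%, 68.1% and 86.2% in oocytes and 52.7%, 67.2%, 59.5% and 44.2% in clones. Neither pair of groups overlapped, and because these shares add to a fixed total, a higher share of one amino acid lowers the others. In IVF 2-cell embryos valine took between 10.8% and 24.5%, and glycine between 45.2% and 70.2%. Numbered 5′ tiRNAs as a whole took 0.259%, 0.221% and 2.55% of listed reads in oocytes and 0.936%, 0.339%, 5.41% and 1.07% in clones, so their total overlapped.

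**Figure D4:**
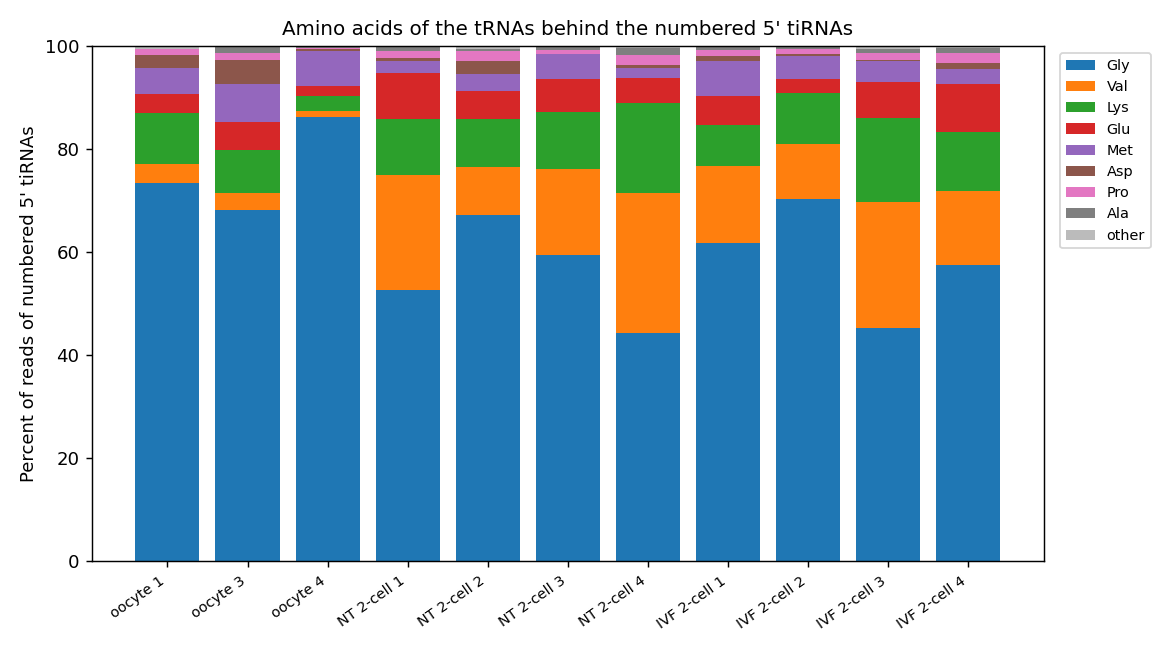
Stacked bars give the percent of reads of numbered 5′ tiRNAs by amino acid of the tRNA in each oocyte, NT 2-cell and IVF 2-cell library. Valine takes 1.24% to 3.59% in oocytes and 9.35% to 27.2% in NT embryos.

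The 5′ tiRNAs listed under Ensembl gene identifiers had mostly negative changes, and 1 fell. The table gives no anticodon for these entries. None of the 102 tRNA-derived entries with an Ensembl identifier, counting those that also name a numbered tRNA gene, had a symbol in the RefSeq gene table. Of 10 tested among 15, 1 was called lower and 0 higher, the median was -1.22 and 1 was positive. The 5′ tiRNA of ENSBTAG00000043562 had 3428, 333 and 7964 normalised reads in oocytes and 282, 341, 163 and 480 in clones, a 12.3-fold difference of means. Its log2 change was -2.81 ± 0.48 (SE), with an adjusted p of 9.2e-06, and -3.04 with an adjusted p of 0.018 without NT replicate 4. Oocyte replicate 3 lay among the clones, and without oocyte replicate 4 the change was -1.84 and no longer passed (adjusted p 0.24), nor did it without NT replicate 3 (-2.53, 0.15). A shorter 5′ fragment of the same tRNA went from 659, 98.0 and 1375 to 71.9, 127, 56.8 and 350 (adjusted p 0.042, overlapping). An internal fragment of ENSBTAG00000043548 went from 357, 49.0 and 91.4 to 0, 60.1, 3.44 and 38.3 (adjusted p 0.022, overlapping). Ensembl-listed 5′ tiRNAs made up 62.2%, 28.8% and 18.8% of all 5′ tiRNA reads in oocytes, against 8.9%, 21.3%, 1.5% and 7.8% in clones. These groups overlapped, and a higher share of numbered 5′ tiRNAs lowers this share.

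Other kinds of tRNA piece gave few calls. Among fragments that end in the 3′ CCA tail, which is added to every mature tRNA, 74 were tested. Their median log2 change was 0.43 and 52 were positive, and among the 35 found in all 7 libraries the median was 0.30. An unadjusted p under 0.05 in limma was met by 7, all higher, and 1 of 74 was called, higher. That fragment of ENSBTAG00000043549 went from 45.3, 73.5 and 56.3 to 387, 661, 87.7 and 162 with no overlap (log2 change 2.02, adjusted p 0.042), while the 5′ tiRNA of the same tRNA stood at 3503, 975 and 1139 against 1062, 962, 353 and 657 (-1.17, adjusted p 0.72). No trailer, the 3′ piece removed while a tRNA matures, passed in limma among 224 tested (9 unadjusted, median 0.06), and no leader among 20 (0 unadjusted, median -0.42). Over all tRNA-derived entries, 585 of 907 were tested, 10 passed higher and 3 lower, and the median was 0.10. Of all 7803 tested entries, 0.256% passed higher and 0.141% lower.

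Of 3 fragment entries of mitochondrial ribosomal RNA tested, 1 was called, lower, and the median log2 change of the 3 was -0.14. Entry ENSBTAG00000043570, annotated as mitochondrial rRNA, had 2542, 2382 and 2029 normalised reads in oocytes and 315, 361, 389 and 518 in NT embryos. The 3 oocyte libraries were close together, every clone lay below them, and the means differed 5.86-fold; the groups did not overlap on CPM of the listed reads either. The log2 change was -2.55 ± 0.48 (SE), with an adjusted p of 1.5e-04, and without NT replicate 4 it was -2.69 with an adjusted p of 0.013. IVF 2-cell embryos lay between, at 571 to 1094, and the difference of NT from IVF was -1.0 (95% interval -2.13 to 0.12). The other mitochondrial rRNA gene, ENSBTAG00000043567, had a log2 change of 0.08 (adjusted p 1.00). All mitochondrial rRNA entries together took 0.0993% to 0.125% of listed reads in oocytes and 0.0154% to 0.0421% in clones, without overlap. In IVF 2-cell embryos this share ran from 0.0252% to 0.177%. Most of these reads belonged to the called entry, so the share is no separate result, and it was described and not tested. A fragment count does not measure the intact rRNA. Entries of other rRNA gave no call in limma among 38 tested (4 had an unadjusted p under 0.05, median 0.37).

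Each of the 7 libraries was also left out in turn, and 3 of the 31 called entries passed every time: the valine 5′ tiRNAs 8133 and 3277 and the mitochondrial rRNA entry. Among the rest, the valine 5′ tiRNA 4963 passed in 6 of the 7 omissions, 5 entries in 5, 1 in 4, 3 in 3, 9 in 2, 7 in 1 and 2 in none.

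Among miRNAs the calls went both ways. Of 267 tested without mismatch, 3 were higher and 3 lower, with a median of -0.33 and 95 positive. Over all 7803 tested entries, 20 were called higher (0.256%) and 11 lower (0.141%), which are smaller shares. Without overlap, 9 of the 267 lay above and 38 below the oocytes, beside 183 (2.35%) and 227 (2.91%) of the 7803.

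The 3 lower entries were miR-202, miR-202-5p and miR-31. miR-202 is a gonadal miRNA found in granulosa and germ cells. The miR-202 entry had 654, 118 and 123 normalised reads in oocytes and 22.1, 53.4, 43.0 and 11.97 in clones, a 9.14-fold difference of means (log2 change -2.70 ± 0.60, adjusted p 0.0049). The miR-202-5p entry had 891, 230 and 415 against 83.0, 53.4, 191 and 49.1, or 5.44-fold (log2 change -2.37 ± 0.51, adjusted p 0.0034). Neither overlapped. Oocyte replicate 1 was the highest in both, and without it the changes were -1.90 and -1.87 with adjusted p of 0.96 and 0.5. Without NT replicate 4 they were -2.36 and -2.15 with adjusted p of 0.25 and 0.233.

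miR-31, abundant in mesenchymal cells, stood at 785, 323 and 376 in oocytes and 71.9, 100, 231 and 69.4 in clones (log2 change -2.08 ± 0.50, adjusted p 0.019, no overlap). It missed the threshold without oocyte replicate 1 (adjusted p 0.73), oocyte replicate 4 (0.082), NT replicate 1 (0.12) or NT replicate 4 (0.324). The entry miR-31-5p followed it at 1163, 544 and 633 against 188, 220, 404 and 223 without passing (log2 change -1.56, adjusted p 0.154).

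Markers of cumulus cells, which surround the oocyte and shared the culture of the clones, were read beside these values. Of 8 listed cumulus and granulosa entries (miR-132, miR-212, miR-202 and miR-21), 5 were tested, 2 were called, both miR-202 entries and both lower, and the median was -2.37. The summed level of the 8 entries ranged from 2798 to 9126 in oocytes, 1036 to 6026 in NT embryos and 1127 to 18646 in IVF embryos, and miR-21-5p made up most of it. miR-132-3p was at 0 in all 3 oocyte libraries and miR-212-3p was found in 1 of them, while miR-132 stood at 35.2, 29.4 and 14.1 against 0, 0, 10.3 and 5.98 (adjusted p 0.84). The part of cumulus RNA in the lower miR-202 was not tested.

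Higher in the clones were miR-24-2-3p, miR-145-5p and miR-451, all at low levels. miR-24-2-3p, from a cluster with miR-23 and miR-27, had 0, 0 and 2 reads in oocytes and 10, 14, 16 and 34 in clones, or 0, 0 and 7.03 against 55.3, 93.5, 27.5 and 40.7 normalised reads (log2 change 3.68 ± 0.97, adjusted p 0.042). The entry shared by miR-24-1-3p and miR-24-2-3p, at 186, 118 and 49.2 against 99.6, 73.5, 131 and 89.8, had a log2 change of -0.10. Both entries name the same mature miRNA, and how the counting divided reads between them was not tested. miR-145-5p, a marker of smooth muscle and fibroblasts, had 25.2, 34.3 and 0 against 77.4, 46.8, 112 and 152.01 (log2 change 2.70 ± 0.71, adjusted p 0.042). miR-451, a miRNA of red blood cells, had 10.1, 9.8 and 0 against 60.8, 13.4, 112 and 168 (log2 change 3.09 ± 0.82, adjusted p 0.042). For miR-451, oocyte replicates 1 and 3 and NT replicate 2 each held 2 reads, the smallest non-zero count, and only the scaling set them apart. None of these entries had overlapping groups in normalised reads. Without NT replicate 4 the adjusted p values were 0.29, 0.74 and 0.75, and each call was also lost with at least 1 other library left out.

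miRNAs listed for fibroblasts and mesenchymal cells, the kind of cell used as donor, were read as well. miR-21 is on this list and on the cumulus list. Of 31 entries on the fibroblast and mesenchymal list, 24 were tested, 1 was called higher (miR-145-5p) and 1 lower (miR-31), and the median was -0.20. The list took 9.78% to 17.4% of miRNA reads in oocytes, 6.43% to 24.7% in NT embryos, 6.36% to 39.3% in IVF embryos and 30.5% to 37.0% in the fibroblasts. Oocytes and IVF embryos received no donor cell, and the part of donor RNA in the clones was not tested. miR-214-3p was at 0 in the oocytes and at 16.6, 0, 24.1 and 14.4 in clones (adjusted p 0.85). Of 8 blood entries, 4 were tested and miR-451 alone was called. Their summed level ran from 10.1 to 70.3 in oocytes and from 13.4 to 333 in clones, miR-142 and miR-486 were at 0 in all oocyte libraries, and the part of serum in the medium was not tested.

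No entry on the list of oocyte miRNAs passed. Of 18 listed entries 13 were tested and 0 called (3 had an unadjusted p under 0.05), at a median of -0.50. The summed level was 2489 to 3224 in oocytes, 1462 to 2976 in clones and 0 to 82.5 in fibroblasts; the list was chosen for oocytes, so its low level in fibroblasts is no finding. miR-205-5p, an epithelial and oocyte miRNA, stood at 820, 706 and 830 against 963, 768, 449.01 and 728 (log2 change -0.16), and miR-138-2-5p at 629, 1005 and 679 against 774, 581, 325 and 524 (-0.51). The low entry miR-1298-5p had 10.1, 14.7 and 10.5 against 0, 0, 0 and 7.18 (adjusted p 0.85).

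No entry passed among let-7 miRNAs, which restrain growth and rise with differentiation, although most changes were negative. Of 20 entries 17 were tested, with a median of -1.37 beside -0.33 over miRNAs without mismatch, and 9 had an unadjusted p under 0.05, 8 of them lower. The median was -1.27 without NT replicate 4. let-7f had 649, 358 and 373 against 116, 86.9, 256 and 186 (log2 change -1.54, adjusted p 0.201), and let-7a-5p 805, 304 and 489 against 238, 214, 239 and 269 (-1.03, 0.821). Both were without overlap. The shared entry of the 3 let-7a precursors ran the other way, at 80.5, 24.5 and 63.3 against 205, 207, 51.6 and 180 (log2 change 1.40, adjusted p 0.68).

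**Figure D5:**
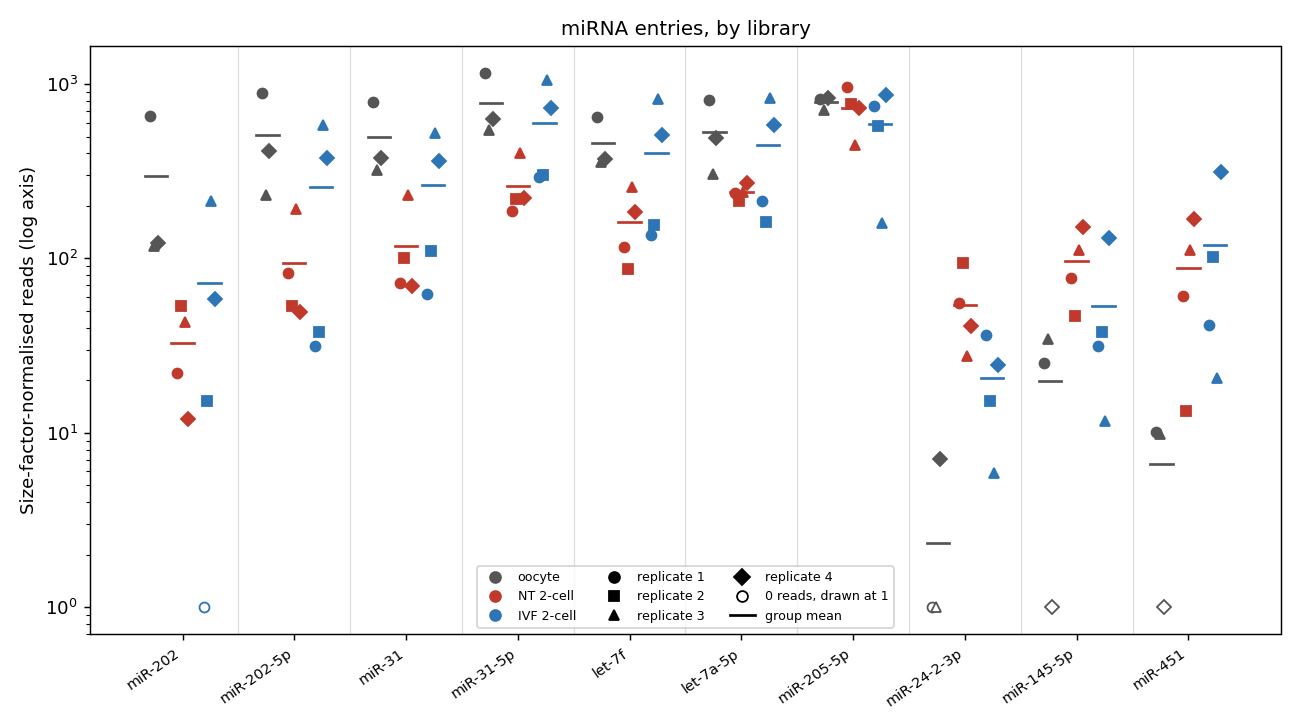
Normalised reads on a log axis for 10 miRNA entries, with 1 point per library, a bar at each group mean, and open points at 1 for entries with 0 reads. The miR-202, miR-31, let-7f and let-7a-5p entries are lower in every NT library than in every oocyte library, miR-205-5p overlaps, and the 3 entries on the right are higher in NT embryos at low read numbers.

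Other miRNA families gave 0 calls in limma among 21 tested entries of the miR-17-92 group (median -0.40), 15 of miR-15/16 (-0.33), 7 of miR-30 (-0.46), 8 of the miR-34 and miR-449 family (-0.54), 3 of the miR-148 and miR-152 family (0.08) and 6 of miR-21 and miR-130 (-0.43). An unadjusted p under 0.05 was met by 3 entries of the miR-17-92 group, 2 of the miR-15/16 family and 0 of the others. miR-21-5p, a miRNA of many growing cells, had 7510, 2411 and 3526 against 1449, 929, 5756 and 1906 (log2 change -1.03, adjusted p 0.846). miR-497 of the miR-15/16 family had 40.3, 24.5 and 10.5 against 0, 0, 0 and 2.39, without overlap but with an adjusted p of 0.563. The miR-23/24/27 clusters gave the 1 call already described, among 10 tested. The pluripotency miR-302 and miR-371 family had 1 entry, which was too low to test.

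piRNAs, though most of the reads, gave 7 calls among 6179 tested, 4 higher and 3 lower, with a median of -0.0056. Over all 7803 tested entries 31 were called (0.397%), a larger share than among piRNAs. The cluster on chromosome 6 from 110178897 to 110333441 took 32.8% ± 0.487 (SD, n = 3) of piRNA reads in oocytes and 32.3% ± 0.208 (SD, n = 4) in clones. Those on chromosome 17 from 62734087 to 62862016 and chromosome 23 from 13905000 to 14137856 took 17.8% ± 0.84 and 17.5% ± 0.325 in oocytes, and 18.4% ± 0.119 and 17.9% ± 0.21 in clones. The positions are those in the entry names. The submitters' processing notes name bosTau8 and UMD3.1 and do not say which the names follow.

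Of the called piRNA entries, 6 of 7 carried mismatches to the annotation, as did 4999 of the 6179 tested, a similar share. A mismatched entry of the chromosome 14 cluster from 4892124 to 5053723 was at 0 in all oocyte libraries and at 33.2, 86.9, 25.8 and 39.5 in clones, at least 3.45-fold higher with 3 reads granted to each oocyte library (adjusted p 0.039). Those of the X chromosome (125075218 to 125082974), chromosome 8 (24038435 to 24129155) and chromosome 17 clusters were higher with log2 changes of 3.64, 3.58 and 2.92, none overlapping. Lower were mismatched entries of chromosome 11 (43002041 to 43011022), at 111, 118 and 130 against 22.1, 13.4, 0 and 57.5, and chromosome 4 (49203707 to 49210748), at 745, 240 and 94.9 against 149, 20.0, 10.3 and 43.1. The chromosome 4 entry overlapped through NT replicate 1, and the third lower entry, from chromosome 24 (17975001 to 17981726), overlapped at 539, 137 and 120 against 60.8, 147, 0 and 157. None of the 7 passed without NT replicate 4.

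In the remaining classes, a fragment of the predicted transcript GENSCAN00000033742 rose from 0, 19.6 and 10.5 to 99.6, 20.0, 807 and 243 (log2 change 3.94 ± 0.68, adjusted p 1.6e-05). In normalised reads its lowest clone, NT replicate 2, barely cleared the highest oocyte library, oocyte replicate 3, which held more whole reads than that clone. Without NT replicate 4 the adjusted p was 0.157. A fragment of GENSCAN00000012717 (adjusted p 0.044) and one of the signal recognition particle RNA family RF00017 (0.037) were higher with overlapping groups. An entry for miR-203-3p of other species was lower, at 176, 53.9 and 66.8 against 0, 0, 25.8 and 22.7 (log2 change -3.40, adjusted p 0.037).

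Whether the clones differed from fertilised embryos of the same age was tested directly, in 1 fit of the 11 oocyte, NT and IVF 2-cell libraries. No entry of 9324 passed in limma (0.0% of those tested), with 340 at an unadjusted p under 0.05 (3.65%) and a median of 0.31. For the valine 5′ tiRNA 8133 the NT minus IVF difference was -0.08 (95% interval -1.24 to 1.07), and for number 3277 it was -0.09 (-1.28 to 1.09). These intervals are wide enough to hold a difference of more than 2-fold either way. Of the 31 entries called against oocytes, 29 had a 95% interval, not adjusted for the number of entries, that held 0. The exceptions were the glycine 5′ tiRNA 6425 at -1.26 (-2.40 to -0.12) and the miR-203-3p entry at -2.33 (-3.92 to -0.74), both lower in the clones. In the same fit 18 entries were called between IVF embryos and oocytes, but that contrast shares the 3 oocyte libraries with the NT contrast. IVF embryos held the valine 5′ tiRNA 8133 at 864 to 9707 normalised reads, number 3277 at 125 to 1044, miR-202-5p at 31.3 to 581 and miR-31 at 62.6 to 527.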

How the data were processed

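Small RNA was sequenced on an Ion Proton instrument, per the labels' protocols. Per the submitters' processing notes, Trim Galore and DESeq2 were used, with the builds bosTau8 and UMD3.1; no source used here names the aligner. The authors deposited 1 table of variance-stabilised log2 values for 12345 entries in 42 libraries. From those values, the lowest being 1.37, the transformation was inverted, and 100% of 188126 values above the lowest came out as whole reads within 0.01 reads. The smallest non-zero value was 2 reads. Size factors of the 7 libraries ran from 0.150 to 0.835.

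The deposited log2 values of the 3 oocyte and 4 NT 2-cell libraries were fitted with limma 3.58.1 (R 4.3.3), eBayes with trend, two-sided, Benjamini-Hochberg over all tested entries, threshold 0.05. An entry was tested where 3 or more libraries exceeded the table minimum by 1 log2 unit. Residual degrees of freedom were 5, and the estimated prior degrees of freedom were infinite. Log2 changes understate those of low entries. Shares were compared by exact permutation with scipy 1.17.1 (Python 3.11.15). Intervals and the floor of 3 reads cover counting error or model error only.

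The members and lists were chosen with earlier results of these data known. Named are the called entries with the largest changes (up to 10 miRNAs, 8 tRNA-derived, 8 piRNAs and 4 others per direction), those called without NT replicate 4, the most abundant entries and list members, and miRNAs that earlier results named. Alternatives covered the filter, scaling, scale, spread, test, library weights, block and omitted libraries; scaling to CPM of the listed reads and robust eBayes were chosen after seeing the data. Mismatched and other-species miRNAs were left out of the lists.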

Additional observations from a re-analysis of the deposited data

Results flagged for a closer look

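Among 35 values checked over the 4 NT 2-cell libraries for 1 library far from the rest, 5 met the criterion, Dixon's 95% limit on the gap to the nearest library, and chance alone gives about 1 in 20. In NT replicate 3, piRNAs took 82.2% of listed reads and tRNA-derived entries 10.3%, the lowest and the highest of the 4. NT replicate 2 had the 5′ tiRNA of tRNA ValTAC number 3277 at a level of 6.81 on the deposited log2 scale, far below the other clones. NT replicate 4 had 1639799 listed reads and all 12345 entries, both the highest by far.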

How the results depend on the processing

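The 31 calls between oocytes and NT embryos became 17 with median centring, 0 with no trend, 293 in 1 model over 12 groups, 13 among entries found in all 7 libraries, 106 with library weights and 5 to 23 with 1 library left out. Of the 31, 9 were among the calls with median centring, 8 among the 293, 11 among the 13 and 25 among the 106. With the replicate block there were 16, of which 14 were among the 31, but same-numbered libraries did not deviate together (correlations of 0.01, -0.03 and 0.04), so the numbers are not taken as pairs, and the block drops NT replicate 2 in effect. Of the 31, 26 were called with no filter, 31 with the stricter filter, 29 on log2(normalised reads + 1), 11 with voom, 13 on CPM of the listed reads and 7 after quantile normalisation. The 5 calls without NT replicate 4 became 13 without the filter, 3 with the stricter filter, 1 with median centring, 3 on log2(normalised reads + 1), 0 with no trend (401 at an unadjusted p under 0.05), 1 with voom, 0 on CPM (494 unadjusted), 11 with robust eBayes and 0 to 21 with 1 more library left out. The 0 calls between NT and IVF embryos became 1 without NT replicate 2 and stayed 0 in the other alternatives run. The cause of these shifts was not tested, except that omissions and the filter on all 7 libraries use fewer samples or entries.

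No difference of a share passed, and with 1 library left out some signs turned. With 1 library left out, the NT minus oocyte difference in percentage points ranged from -2.09 to 1.09 for piRNA, -0.22 to 2.33 for tRNA-derived entries, -0.73 to 0.0015 for miRNA and -5.87 to 14.2 for 5′ tiRNAs among tRNA-derived reads. With the replicate block these differences were -2.09, 1.95, -0.16 and 8.43. Over the 42 named entries and their alternatives, 492 values kept direction and side of the threshold, 309 lost the call, 6 gained it and 16 turned sign. The turned ones were entries that never passed. miR-205-5p came to 0.019 with voom, 0.013 on CPM and 0.0035 after quantile normalisation. The entry of miR-24-1-3p;miR-24-2-3p came to 0.13, 0.081 and 0.084 in the same 3 settings and 0.027 with the replicate block. With library weights the 5′ tiRNA of tRNA GlyCCC/GlyGCC number 848 came to -0.31. Leaving out 1 library moved the log2 change of miR-205-5p from -0.31 to 0.054, of miR-24-1-3p;miR-24-2-3p from -0.59 to 0.31, of tRNA GlyGCC number 9190 from -0.38 to 1.85 and of number 848 from -0.36 to 1.10. Depth limits low entries: 1 read was worth between 1.20 and 6.68 normalised reads in the 7 libraries.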

Other observations

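Entries that name the same miRNA in different ways did not always move alike, chosen here after their values were seen. miR-122-5p stood at 176, 191 and 134 normalised reads in oocytes and at 387, 274, 354 and 431 in NT embryos, without overlap (log2 change 1.09, adjusted p 0.77), while miR-122 stood at 25.2, 34.3 and 21.1 against 38.7, 13.4, 18.9 and 51.5 (0.04). miR-138 had 322, 573 and 334 against 249, 207, 63.7 and 129 and miR-205 had 65.4, 88.2 and 38.7 against 27.7, 0, 6.88 and 34.7, both without overlap and both not called (adjusted p 0.37 and 0.49). Their entries with the arm named, miR-138-1-5p at 372, 333 and 250 against 282, 254, 146 and 229, and miR-205-5p described above, overlapped. What separates the sequences behind such entries is not given in the table.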
